A study of Mus musculus with 12 samples.

Results

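The genes described here are the 4 ligands of the platelet-derived growth factor (PDGF) family (Pdgfa, Pdgfb, Pdgfc and Pdgfd), their receptors Pdgfra and Pdgfrb, the pericyte proteoglycan gene Cspg4, and the regulators of G protein signalling Rgs2, Rgs4 and Rgs5. They were chosen by symbol in the platform annotation, 10 genes of 19938 tested, and each was measured by 1 probe set. RNA came from untreated wild-type C57BL/6 mice aged 8 weeks and was hybridised to 12 arrays, with 3 biological replicates per vessel. The vessels were the ascending aorta, the coronary artery, the descending aorta and the superior mesenteric artery, the main artery of the small intestine. The series was made to look for expression profiles tied to the embryonic origin of a vessel. The labels call each replicate biological but do not say whether it was 1 animal or a pool. The p-values here therefore reflect the scatter of these samples alone, which may differ from that between single animals. Levels are on the log2 scale, means are given ± SD with n = 3 arrays, and differences are given ± SE from a linear model (limma) fitted to all 12 arrays. A gene was called where its adjusted p (Benjamini-Hochberg, over all genes) was under 0.05. Precision is limited by having 3 arrays in each vessel.

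PDGF ligands are dimers that bind receptor tyrosine kinases. PDGF-B made by endothelium signals through PDGF receptor beta on pericytes and vascular smooth muscle cells and is required for their recruitment to growing vessels, whereas PDGF receptor alpha is typical of fibroblasts and other mesenchymal cells. Cspg4 encodes the proteoglycan NG2, a surface marker of pericytes. RGS proteins speed up the hydrolysis of GTP by G protein alpha subunits and so end signals from G protein-coupled receptors, among them those for vasoconstrictors.

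The arrays differed in the levels of cell type markers. Acta2, the smooth muscle actin gene, was lowest in coronary artery, at 7.22 to 7.97, and lay between 8.72 and 11.60 in the other 9 arrays. Of the marker lists, 10 cardiomyocyte genes averaged 9.65 to 9.99 in the coronary artery arrays and 3.88 to 5.71 in the others, so heart muscle transcripts were abundant in the samples labelled coronary artery. Ascending aorta replicate 1 stood apart: its 9 B cell genes averaged 7.82, against 3.93 and 3.97 in replicates 2 and 3, its 10 fibroblast genes 6.01, against 8.74 and 8.66, and its 10 smooth muscle genes 6.35, against 8.30 and 8.40. Superior mesenteric artery replicate 1 had the highest smooth muscle list, at 9.48 against 6.31 and 6.85 in replicates 2 and 3, and replicate 3 had 8 pancreatic acinar genes at 9.41. Several results are also given without replicate 1 of either ascending aorta or superior mesenteric artery. A fit called here "without 3 arrays" left out replicate 1 of both aortic segments and replicate 3 of superior mesenteric artery. In descending aorta replicate 1 the cardiomyocyte list was at 5.71, against 4.16 and 3.88 in replicates 2 and 3. That fit kept superior mesenteric artery replicate 2. The B cell list was raised in superior mesenteric artery too, at 5.02 to 6.77, against 3.67 to 4.72 in the coronary and descending aorta arrays. Replicate 2 was the highest of that vessel, above replicate 3, which was left out. The fit without 3 arrays was therefore not free of B cell transcripts.

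Rgs2 was the gene of the 10 that differed between vessels, being highest in descending aorta, and the other 9 did not pass over all 12 arrays. In the moderated F test across the 4 vessels 1 of 10 passed, where 4.72% of all genes did. Between pairs, 0 of 10 passed for ascending aorta against coronary artery (2.47% of all genes in limma; 2 of the 10 had an unadjusted p under 0.05). Ascending aorta against descending aorta also gave 0 (0.015% of all genes in limma; 2 unadjusted), as did ascending aorta against superior mesenteric artery (0.176%; 3 unadjusted) and coronary artery against superior mesenteric artery (3.24%; 1 unadjusted). Of all 19938 genes, 2948, 1922, 1439 and 2946 had an unadjusted p under 0.05 in limma in these pairs, in the order given. Coronary artery against descending aorta gave 1 of 10 (3.14% of all genes). Descending aorta against superior mesenteric artery also gave 1 of 10 (3.2%), and the gene was Rgs2 in each. The median difference of the 10 genes was 0.27, 0.16 and 0.23 for ascending aorta set in turn against the coronary, descending aortic and superior mesenteric samples, -0.34 for coronary artery against descending aorta, -0.04 for coronary artery against superior mesenteric artery and 0.37 for descending aorta against superior mesenteric artery. Over all genes these medians lay between -0.02 and 0.00.

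**Figure D1:**
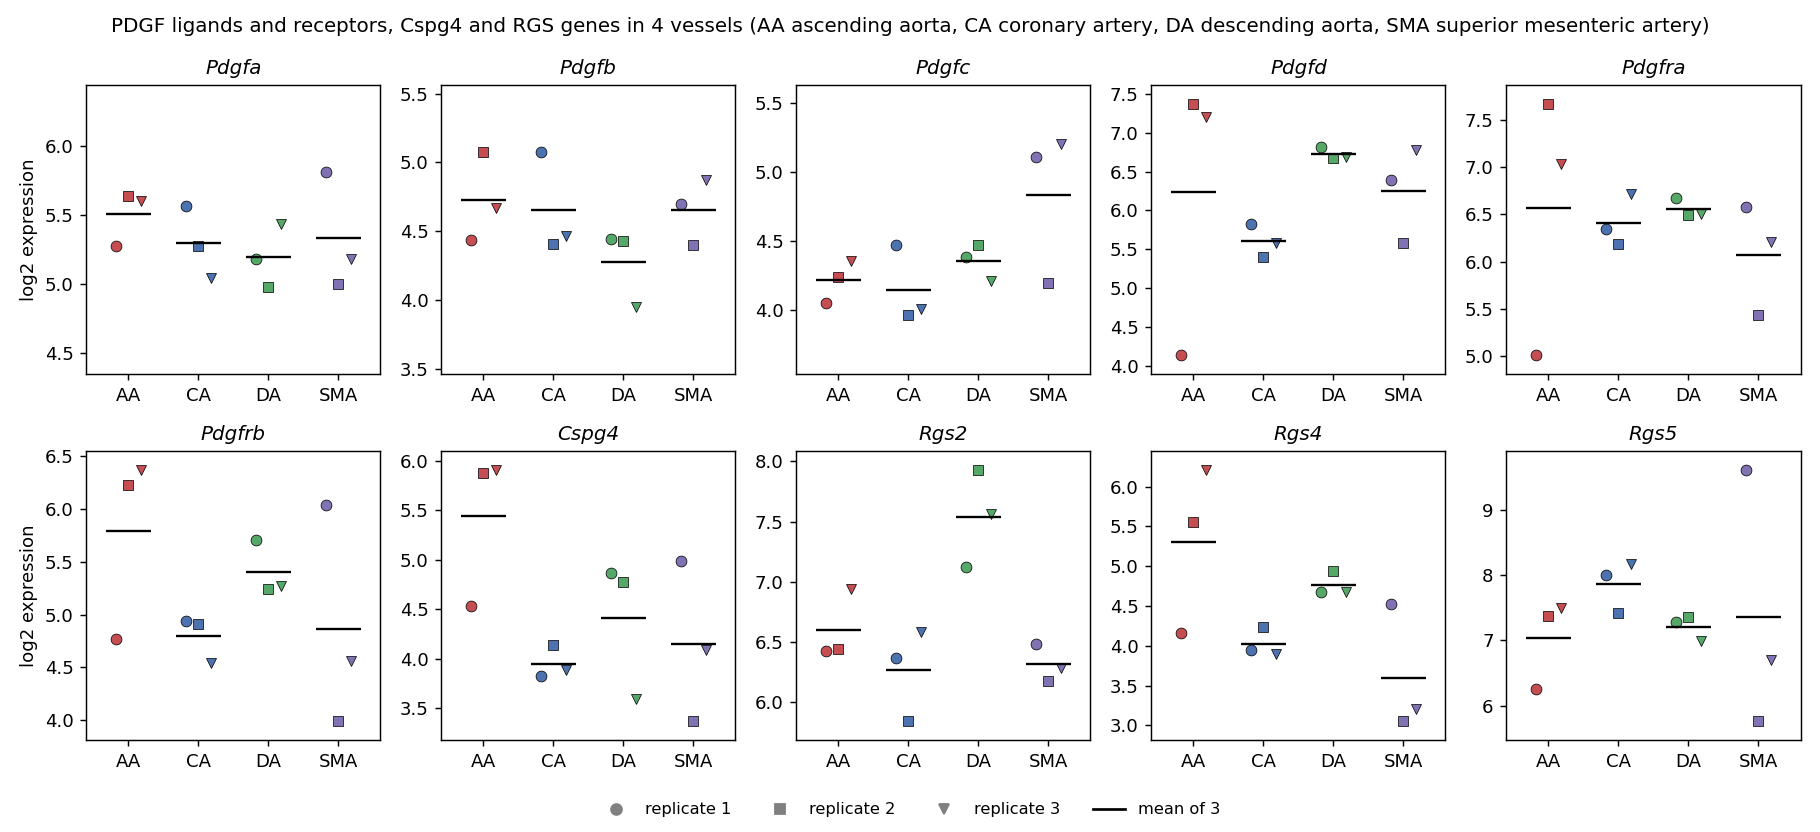
Log2 expression (vertical axes, scaled per gene) of the 10 genes in each of 12 arrays, grouped by vessel. Symbols mark the replicate and horizontal bars the mean of 3 arrays. Rgs2 in descending aorta, at 7.12 to 7.93, lay above the 9 other arrays, and ascending aorta replicate 1 lay far below its fellows for Pdgfd, Pdgfra and Rgs4.

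Among the ligands, neither Pdgfa nor Pdgfb passed in any pair of vessels. Pdgfa, whose dimer signals through PDGF receptor alpha, was at 5.27, 5.64 and 5.60 in ascending aorta, 5.56, 5.28 and 5.04 in coronary artery, 5.18, 4.98 and 5.43 in descending aorta, and 5.81, 5.0 and 5.18 in superior mesenteric artery. The values of all 4 vessels overlapped, and the widest difference, between ascending and descending aorta, was 0.31 ± 0.24 (95% interval -0.20 to 0.82; limma adjusted p = 0.699). Pdgfb was at 4.44, 5.07 and 4.67 in ascending aorta, 5.07, 4.41 and 4.47 in coronary artery, 4.45, 4.43 and 3.95 in descending aorta, and 4.70, 4.40 and 4.87 in superior mesenteric artery. Its vessels overlapped as well, with ascending and descending aorta farthest apart at 0.45 ± 0.24 (95% interval -0.08 to 0.98; limma adjusted p = 0.584).

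Pdgfc and Pdgfd encode ligands that are secreted in a latent form and activated by proteases. Pdgfc was at 4.05, 4.24 and 4.35 in ascending aorta, 4.47, 3.96 and 4.0 in coronary artery, 4.38, 4.47 and 4.21 in descending aorta, and 5.11, 4.19 and 5.20 in superior mesenteric artery. Superior mesenteric artery replicates 1 and 3 were the highest of the 12, while replicate 2 lay within the range of the other vessels. The difference was -0.62 ± 0.26 for ascending aorta against superior mesenteric artery (limma adjusted p = 0.606) and -0.69 ± 0.26 for coronary artery against superior mesenteric artery (limma adjusted p = 0.219). Without superior mesenteric artery replicate 2, whose 10 macrophage genes averaged 8.43 against 6.76 and 7.73 in replicates 1 and 3, the coronary difference was -1.01 (limma adjusted p = 0.0281), the 1 of 22 alternatives in which it passed. In the fit without 3 arrays the differences were smaller, at -0.50 for coronary artery (limma adjusted p = 0.435) and -0.35 for ascending aorta (limma adjusted p = 0.807), each against superior mesenteric artery.

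Pdgfd, a ligand of PDGF receptor beta, was at 4.15, 7.36 and 7.20 in ascending aorta, 5.83, 5.40 and 5.58 in coronary artery, 6.81, 6.67 and 6.68 in descending aorta, and 6.39, 5.58 and 6.78 in superior mesenteric artery. The coronary artery arrays lay below all 3 descending aorta arrays, and ascending aorta held both the lowest and the highest of the 12 values. With all arrays no vessel pair passed: the coronary minus descending aorta difference was -1.12 ± 0.65 (limma adjusted p = 0.55), and the SD was 1.81 in ascending aorta and 0.079 in descending aorta. Fitted on the 6 arrays of that pair alone, the same difference had a limma adjusted p of 0.00306. Without ascending aorta replicate 1, Pdgfd averaged 7.28 in ascending aorta (n = 2) and 5.60 in coronary artery, a difference of 1.68 ± 0.29 or 3.20-fold (limma adjusted p = 0.00405), and coronary artery was lower than descending aorta (limma adjusted p = 0.0215). In these bulk samples, fewer cells of a type and less RNA per cell cannot be told apart.

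Of the receptors, Pdgfra was at 5.01, 7.66 and 7.03 in ascending aorta, 6.34, 6.18 and 6.71 in coronary artery, 6.67, 6.49 and 6.51 in descending aorta, and 6.57, 5.43 and 6.20 in superior mesenteric artery. Ascending aorta again held the lowest and the highest array. No pair passed, and the interval for ascending against descending aorta ran from -1.12 to 1.14. Without ascending aorta replicate 1 the means were 7.35 in ascending aorta and 6.07 in superior mesenteric artery, 2.43-fold apart (limma adjusted p = 0.0411), but the difference did not pass in the fit without 3 arrays (limma adjusted p = 0.127). The fibroblast list was also lowest in ascending aorta replicate 1, at 6.01, against 7.90 to 8.74 in the 11 other arrays. Its part in the result was not tested.

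Pdgfrb was at 4.77, 6.23 and 6.37 in ascending aorta, 4.94, 4.91 and 4.54 in coronary artery, 5.71, 5.24 and 5.27 in descending aorta, and 6.04, 4.0 and 4.56 in superior mesenteric artery. The coronary artery arrays were all below the descending aorta arrays, and in superior mesenteric artery replicate 1 alone was high. The largest differences were 0.99 ± 0.49 for ascending aorta against coronary artery (95% interval -0.06 to 2.05; limma adjusted p = 0.37) and 0.93 ± 0.49 for ascending aorta against superior mesenteric artery (limma adjusted p = 0.773). Leaving out ascending aorta replicate 1, these were 1.5 ± 0.43 and 1.43 ± 0.43 and still did not pass (limma adjusted p = 0.0828 and 0.109). Without superior mesenteric artery replicate 1, the difference from that vessel was 1.51 for ascending aorta (limma adjusted p = 0.199) and 1.13 for descending aorta (limma adjusted p = 0.221), where all 12 arrays gave 0.93 and 0.54.

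Cspg4 was at 4.54, 5.88 and 5.91 in ascending aorta, 3.83, 4.14 and 3.89 in coronary artery, 4.87, 4.78 and 3.6 in descending aorta, and 4.99, 3.38 and 4.09 in superior mesenteric artery. Every ascending aorta array was above every coronary artery array. Of the 10 genes, 1 separated this pair of vessels without overlap, where 19.3% of all genes did. The difference was 1.49 ± 0.46, or 2.81-fold, for ascending aorta against coronary artery (limma adjusted p = 0.135), 1.03 ± 0.46 against descending aorta (limma adjusted p = 0.509) and 1.29 ± 0.46 against superior mesenteric artery (limma adjusted p = 0.473). Without ascending aorta replicate 1 it was 3.84-fold against coronary artery (limma adjusted p = 0.0206) and 3.35-fold against superior mesenteric artery (limma adjusted p = 0.0441). In the fit without 3 arrays the coronary difference passed (limma adjusted p = 0.0368) and the mesenteric one did not (limma adjusted p = 0.146). The smooth muscle list was also high in ascending aorta replicates 2 and 3, at 8.30 and 8.40, against 5.27 to 5.67 in coronary artery, and its part in the result was not tested.

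**Figure D2:**
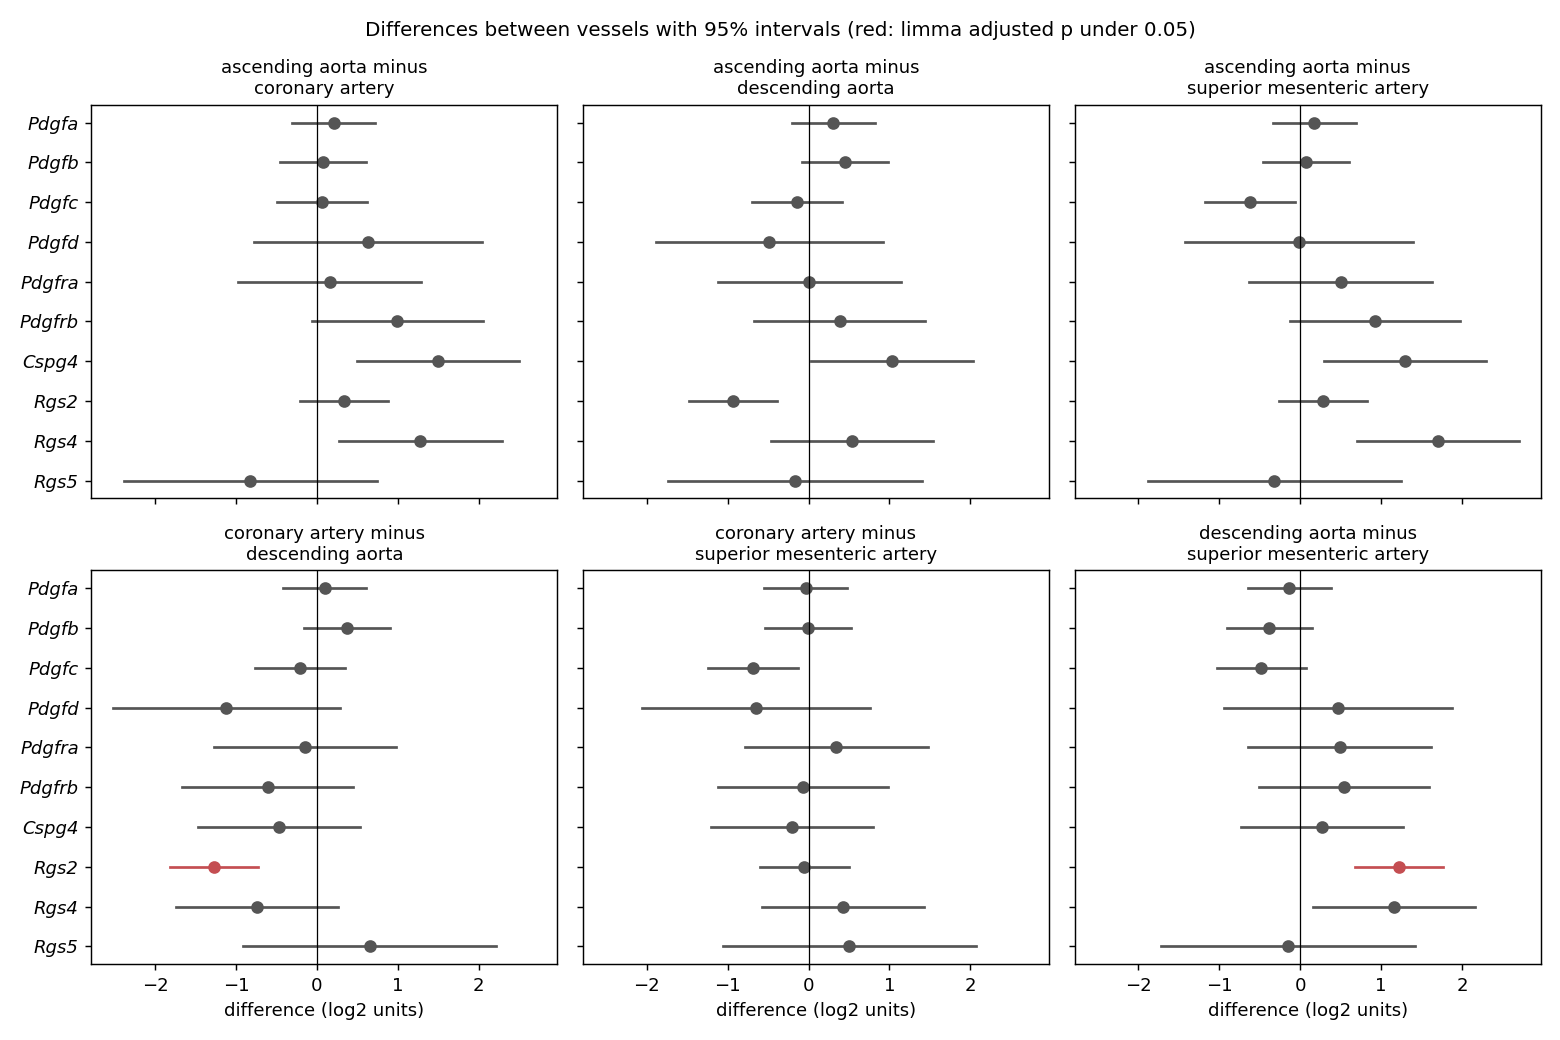
Differences between vessels in log2 units (horizontal axes) for the 10 genes, the vessel named first minus the second. Points are limma estimates over 12 arrays and bars their 95% intervals, with adjusted p under 0.05 in red. Rgs2 passed for coronary artery against descending aorta, at -1.27, and for descending aorta against superior mesenteric artery, at 1.22.

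The 3 RGS genes lie on chromosome 1, where 11 numbered Rgs genes lie in the RefSeq gene table (GRCm38.p6), and Rgs5 and Rgs4 are neighbours with 0 annotated genes between them. Their promoter windows, 250 bases before to 50 after the annotated start and written 5′ to 3′ on the gene's strand, are shown to set Rgs2, which passed the F test, beside its relatives Rgs4 and Rgs5, which did not. They are RefSeq sequences of GRCm38.p6, at chr1:144004100-144004399 for Rgs2 (minus strand), chr1:169747593-169747892 for Rgs4 (minus strand) and chr1:169655251-169655550 for Rgs5 (plus strand). Capitals mark matches, on either strand, to TGACG, the core of a cyclic AMP response element, to the CCAAT box or to the TATA box TATAAA.
Rgs2: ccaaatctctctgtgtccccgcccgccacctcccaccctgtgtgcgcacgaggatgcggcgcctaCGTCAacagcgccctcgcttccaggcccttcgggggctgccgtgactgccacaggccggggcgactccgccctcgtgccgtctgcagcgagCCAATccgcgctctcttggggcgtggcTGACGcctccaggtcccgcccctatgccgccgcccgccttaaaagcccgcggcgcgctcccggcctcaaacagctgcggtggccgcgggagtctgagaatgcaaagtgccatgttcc
Rgs4: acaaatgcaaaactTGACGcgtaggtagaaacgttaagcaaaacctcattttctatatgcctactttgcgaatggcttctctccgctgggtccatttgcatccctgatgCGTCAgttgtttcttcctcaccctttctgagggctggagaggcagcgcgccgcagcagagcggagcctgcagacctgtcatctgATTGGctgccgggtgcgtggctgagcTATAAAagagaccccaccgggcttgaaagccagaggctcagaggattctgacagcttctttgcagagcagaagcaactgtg
Rgs5: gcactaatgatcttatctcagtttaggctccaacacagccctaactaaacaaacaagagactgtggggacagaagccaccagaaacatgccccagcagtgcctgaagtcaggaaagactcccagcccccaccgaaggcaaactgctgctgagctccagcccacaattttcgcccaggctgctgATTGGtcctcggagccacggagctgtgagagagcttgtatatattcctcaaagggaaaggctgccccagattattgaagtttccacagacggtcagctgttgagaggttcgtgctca
Rgs2 held 2 matches to TGACG, starting 185 and 67 bases before the start site, and 1 to CCAAT at 94 bases. Rgs4 held 2 to TGACG, at 236 and 141 bases, 1 to CCAAT at 57 and 1 to TATAAA at 31 bases. Rgs5 held 1 to CCAAT, at 67 bases, and 0 to the others. No marked match overlapped another, and the CArG box, the motif of serum response factor, had 0 matches in these 3 windows. Over 32851 promoter windows of that length, 20.8% held TGACG, 37.4% CCAAT, 13.6% TATAAA and 1.63% a CArG box. These matches describe the letters only and were not tested for use.

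Rgs2, whose protein ends signals from Gq-coupled receptors and whose loss raises blood pressure in mice, was at 6.43, 6.44 and 6.94 in ascending aorta, 6.37, 5.85 and 6.58 in coronary artery, 7.12, 7.93 and 7.57 in descending aorta, and 6.49, 6.18 and 6.29 in superior mesenteric artery. All 3 descending aorta arrays lay above the 9 others, and the other vessels overlapped. Rgs2 averaged 6.27 ± 0.38 in coronary artery and 7.54 ± 0.40 in descending aorta, so it was 2.42-fold lower in coronary artery (difference -1.27 ± 0.25; limma adjusted p = 0.0139). Against superior mesenteric artery, at 6.32 ± 0.15, it was 2.33-fold higher in descending aorta (difference 1.22 ± 0.25; limma adjusted p = 0.0197). Ascending aorta was at 6.6 ± 0.29, and its difference from descending aorta, -0.94 ± 0.25, did not pass (limma adjusted p = 0.391), although the arrays did not overlap. This was the 1 gene of the 10 without overlap between the aortic segments, where 15.7% of all genes had none.

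The call for Rgs2 held in the fit without 3 arrays, with limma adjusted p = 0.0107 for coronary against descending aorta and 0.0247 for descending aorta against superior mesenteric artery. It was lost for coronary against descending aorta without coronary artery replicate 2 or descending aorta replicate 2 or 3 (limma adjusted p = 0.0728, 0.0831 and 0.0541). Against superior mesenteric artery it was lost without descending aorta replicate 2 or 3 or superior mesenteric artery replicate 2 or 3 (limma adjusted p between 0.0665 and 0.113). Fat markers were high in descending aorta as well. Brown adipocyte genes, 7 in the list, averaged 7.18 to 8.04 in ascending aorta, 6.20 to 6.48 in coronary artery, 8.11 to 8.98 in descending aorta and 4.12 to 5.19 in superior mesenteric artery. Adipocyte genes, 9 in the list, were at 6.63 to 8.36 in ascending aorta, 5.88 to 6.28 in coronary artery, 8.07 to 8.75 in descending aorta and 6.26 to 6.90 in superior mesenteric artery. Between ascending and descending aorta the adipocyte list overlapped, and neither the brown adipocyte list nor Rgs2 did. The part of fat around the vessel in the Rgs2 difference was not tested.

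Rgs4 was at 4.16, 5.55 and 6.21 in ascending aorta, 3.95, 4.23 and 3.90 in coronary artery, 4.68, 4.94 and 4.68 in descending aorta, and 4.53, 3.06 and 3.21 in superior mesenteric artery. The descending aorta arrays lay above all coronary and all superior mesenteric artery arrays, and ascending aorta replicates 2 and 3 were the highest of the 12. The range of vessel means, 1.71, was the widest of the 10 genes. The difference was 1.71 ± 0.46, or 3.26-fold, for ascending aorta against superior mesenteric artery (limma adjusted p = 0.241), 1.28 ± 0.46 against coronary artery (limma adjusted p = 0.206) and 0.54 ± 0.46 against descending aorta (limma adjusted p = 0.733). Descending aorta was 1.16 ± 0.46 above superior mesenteric artery (limma adjusted p = 0.264). Without ascending aorta replicate 1, Rgs4 was 4.85-fold higher in ascending aorta than superior mesenteric artery (limma adjusted p = 0.00355) and 3.61-fold higher than in coronary artery (limma adjusted p = 0.0109). Both also passed in the fit without 3 arrays (limma adjusted p = 0.0315 and 0.0221). Without superior mesenteric artery replicate 1, that vessel lay 4.51-fold below ascending aorta (limma adjusted p = 0.0703) and 1.63 below descending aorta (limma adjusted p = 0.0848), and neither passed. Genes of the intestinal epithelium, which the vessel wall is not known to use, averaged 2.87 to 3.20 in these arrays. Superior mesenteric artery replicates 2 and 3 were near that level for Rgs4, so on that account a fold against them may be a lower bound. The smooth muscle list was also lower in these replicates, at 6.31 and 6.85, against 9.48 in replicate 1, where Rgs4 was at 4.53. The part of cell content in the fold, which could make it larger or smaller, was not tested.

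Rgs5, a marker of pericytes and arterial smooth muscle that restrains signalling by vasoactive receptors, was at 6.26, 7.37 and 7.50 in ascending aorta, 8.00, 7.42 and 8.18 in coronary artery, 7.29, 7.35 and 7.0 in descending aorta, and 9.60, 5.77 and 6.71 in superior mesenteric artery. Superior mesenteric artery held both the highest and the lowest array, with an SD of 2.0 against 0.19 in descending aorta. No pair of vessels passed, and the coronary artery minus superior mesenteric artery difference was 0.50 ± 0.72 (95% interval -1.06 to 2.07; limma adjusted p = 0.801). Without superior mesenteric artery replicate 1 it was 1.63 ± 0.39, or 3.08-fold (limma adjusted p = 0.0483), and without replicate 2 it turned to -0.29 (limma adjusted p = 0.888). Coronary artery lay above descending aorta in every array, a difference of 0.65 ± 0.72 that did not pass (limma adjusted p = 0.83). In all, 5 of the 10 genes had no overlap between those vessels (Pdgfd, Pdgfrb, Rgs2 and Rgs4 lower and Rgs5 higher in coronary artery), where 22.4% of all genes had none, and 2 had none between descending aorta and superior mesenteric artery (Rgs2 and Rgs4), where 22.9% had none. None of the 10 was free of overlap between ascending aorta and superior mesenteric artery (9.35% of all genes) or between coronary and superior mesenteric artery (22.4%).

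The 12 arrays set against the marker lists show how the members varied within a vessel. In superior mesenteric artery replicate 1, Rgs5 was 2.2 above its own mean over the 12 arrays and the smooth muscle list 2.5 above its mean. In coronary artery the smooth muscle list was 1.3 to 1.7 below its mean while Rgs5 was between 0.0 and 0.8 above. Pdgfd and the fibroblast list were 2.1 and 2.2 below their means in ascending aorta replicate 1, where the B cell list was 2.9 above. Cspg4 and Rgs4 in that array were 0.0 above and 0.3 below their means. These are descriptions of single arrays, and the part of cell content in them was not tested.

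**Figure D3:**
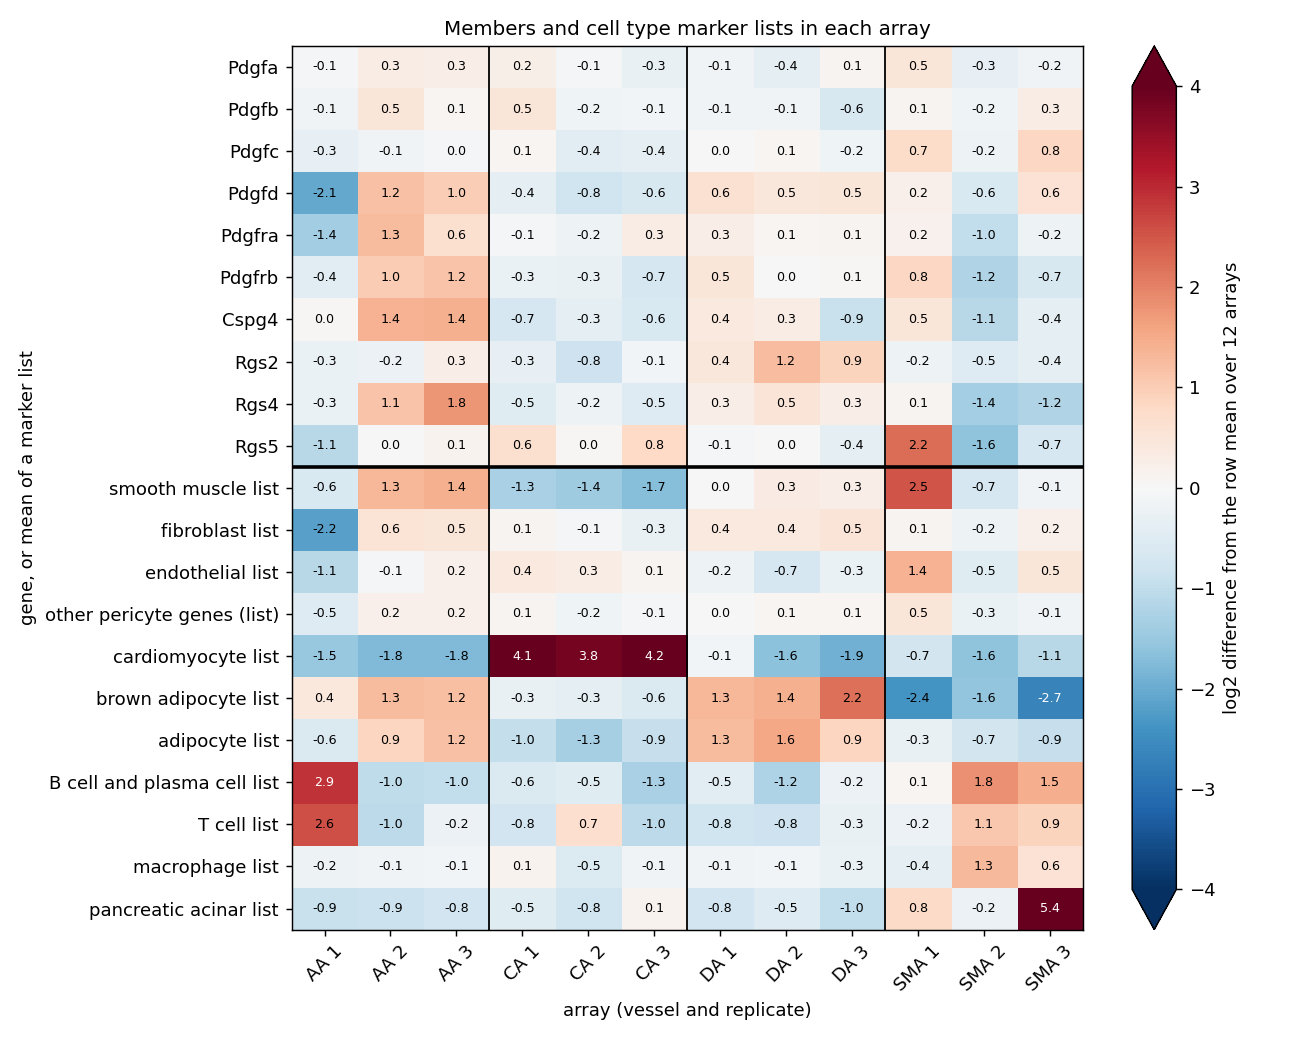
Log2 difference of each gene (upper 10 rows) and of each marker list mean (lower 11 rows) from its own mean over 12 arrays, by array, with vessels separated by lines (AA, ascending aorta; CA, coronary artery; DA, descending segment; SMA, superior mesenteric artery). The colour scale ends at 4 and printed values are rounded. The cardiomyocyte list was 3.8 to 4.2 above its mean in the coronary artery arrays.

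The genes whose pattern was most like a member's, by root mean square difference over the 12 arrays after centring each gene on its own mean, were sought for the 4 members with the widest range of vessel means. Nearest to Rgs2 were Gys1 (0.17 log2 units), Emc8 (0.20) and Spata22 (0.21), where the median gene was at 0.65. Spata22 averaged 3.44 in descending aorta but 2.31 to 2.51 in the other vessels, below the level of the intestinal genes. Gys1, which encodes muscle glycogen synthase, averaged 4.91 in ascending aorta, 4.66 in coronary artery, 5.81 in descending aorta and 4.34 in superior mesenteric artery. For Rgs4 these were Sost (0.34), Ncam1 (0.34) and Fblim1 (0.36), with the median gene at 0.91. Sost, the gene of the Wnt inhibitor sclerostin, averaged 5.87 in ascending aorta, 4.79 in coronary artery, 5.54 in descending aorta and 4.28 in superior mesenteric artery. The nearest to Cspg4 were Pcdh7 (0.34), the elastin gene Eln (0.35) and Pdgfrb itself (0.38), with the median gene at 0.85. For Pdgfd they were Gask1b (0.27), Fstl1 (0.28) and the collagen gene Col14a1 (0.28), with the median gene at 0.93. The measure rewards genes that share the outlying arrays as well as the vessel means.

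Of 17 other measured RGS family genes, 1 differed among the vessels in the F test, where 4.72% of all genes did. This was Rgs7, and it differed more widely than any member. Rgs7, a member of the R7 subfamily best known from neurons, was at 3.08, 4.86 and 4.32 in ascending aorta, 2.69, 2.67 and 2.55 in coronary artery, 5.30, 5.67 and 5.59 in descending aorta, and 2.62, 2.59 and 2.54 in superior mesenteric artery. The descending aorta arrays were above all others, ascending aorta lay between, and the other vessels were near the level of the intestinal genes, so folds against them may be lower bounds. It was 7.38-fold lower in coronary artery than in descending aorta (limma adjusted p = 0.000304) and 7.66-fold higher in descending aorta than in superior mesenteric artery (limma adjusted p = 0.000978). Ascending aorta was 2.73-fold above coronary artery (limma adjusted p = 0.0421) and 2.70-fold below descending aorta, where it did not pass (limma adjusted p = 0.348). With replicate 1 of ascending aorta, its lowest, left out, Rgs7 differed by 1.95 for ascending aorta against coronary artery (limma adjusted p = 7.74e-05) and by 2.01 against superior mesenteric artery (limma adjusted p = 0.000161, and 0.134 with all arrays). Against descending aorta it was -0.93 and did not pass (limma adjusted p = 0.342). Rgs6, of the same subfamily, was at 1.99 to 2.32 in ascending aorta and 3.23 to 3.58 in coronary artery and was lower in ascending aorta (difference -1.24 ± 0.29; limma adjusted p = 0.0445). The ascending aorta values lay below the level of the intestinal genes and coronary artery just above it, so the size of this difference is not a reliable measure. It was -1.16 without ascending aorta replicate 1 and did not pass (limma adjusted p = 0.0695).

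**Figure D4:**
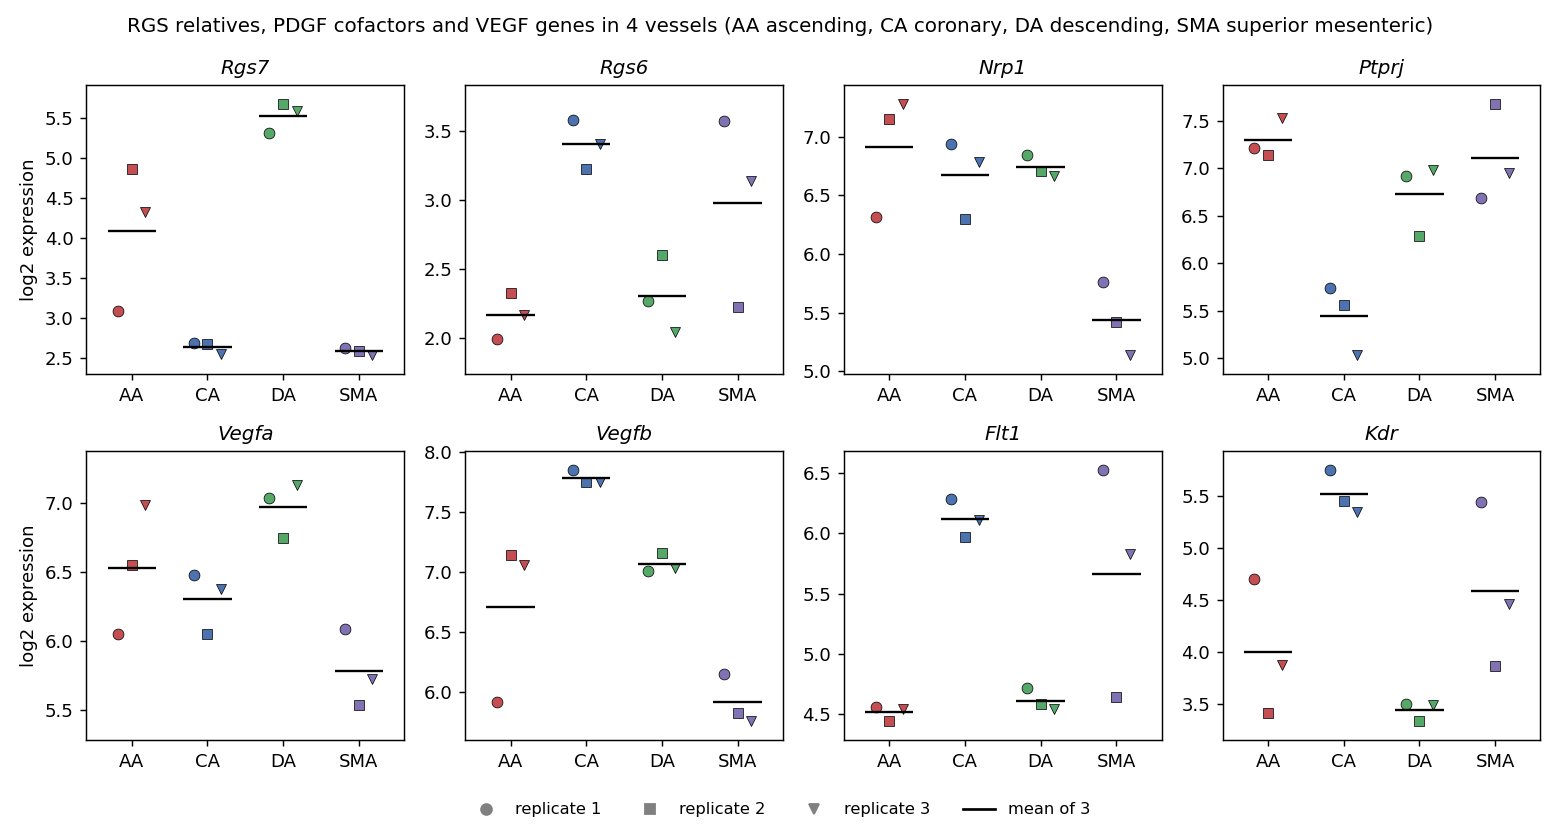
Log2 expression (vertical axes, scaled per gene) by vessel of RGS relatives, PDGF cofactors and VEGF genes in each of 12 arrays. Symbols mark the replicate and bars the mean of 3. Rgs7 was at 5.30 to 5.67 in descending aorta and at 2.54 to 2.69 in coronary and superior mesenteric artery.

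Of 10 other pericyte genes measured, 0 passed the limma F test (2 at an unadjusted p under 0.05), and in the 6 pairwise comparisons 0 passed, with between 0 and 3 at an unadjusted p under 0.05. Abcc9, a subunit of the ATP-sensitive potassium channel of mural cells, was at 6.28, 7.93 and 7.36 in ascending aorta and at 5.48 to 6.44 in coronary artery. The list did not share this direction, as its median difference for that pair, ascending minus coronary, was -0.06. Mcam, an adhesion molecule of mural and endothelial cells, was at 9.16 in superior mesenteric artery replicate 1, against 5.84 and 6.35 in replicates 2 and 3, so that array was high for it as for Rgs5. Without ascending aorta replicate 1, or without 3 arrays, 1 of 10 passed the F test, where 9.15% and 5.86% of all genes did. The gene was Ndufa4l2, which was at 5.51 and 5.83 in ascending aorta replicates 3 and 2 and at 4.01 to 4.73 in superior mesenteric artery.

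Of 10 genes for PDGF cofactors and processing, 2 passed the F test, Nrp1 and Ptprj, where 4.72% of all genes did. Nrp1, a coreceptor for VEGF and PDGF, was at 6.31, 7.15 and 7.27 in ascending aorta, 6.94, 6.30 and 6.78 in coronary artery, 6.85, 6.71 and 6.66 in descending aorta, and 5.76, 5.42 and 5.14 in superior mesenteric artery. All superior mesenteric artery arrays lay below the other 9. Coronary artery exceeded superior mesenteric artery 2.35-fold for Nrp1 (limma adjusted p = 0.0244), and descending aorta exceeded it 2.46-fold (limma adjusted p = 0.0196). Ptprj, a receptor phosphatase that acts on the PDGF beta receptor, was at 5.74, 5.56 and 5.04 in coronary artery and between 6.29 and 7.67 elsewhere. It was 3.6-fold higher in ascending aorta than in coronary artery (limma adjusted p = 0.0032) and 2.43-fold lower in coronary than in descending aorta (limma adjusted p = 0.0291), a call lost in the fit without 3 arrays (limma adjusted p = 0.102). Coronary artery was 3.15-fold below superior mesenteric artery (limma adjusted p = 0.00605), and there the protease gene Plau was lower as well, by 0.87 ± 0.20 (limma adjusted p = 0.0346).

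Of 20 measured genes of PDGF receptor signal transduction, 0 passed the limma F test (5 at an unadjusted p under 0.05), and 2 were lower in coronary artery than in descending aorta. In that comparison 3.14% of all genes passed, in either direction. The adaptor gene Shc1 averaged 4.60 in coronary artery and 5.71 in descending aorta (limma adjusted p = 0.0446). Pik3r1, a regulatory subunit of phosphoinositide 3-kinase, averaged 6.21 in coronary artery and 7.34 in descending aorta (limma adjusted p = 0.0222). In the 5 other comparisons 0 of 20 passed in limma, with between 0 and 4 at an unadjusted p under 0.05. The median difference of the list was 0.02 for coronary against descending aorta.

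Among 11 relatives of the PDGF and VEGF superfamily, 3 passed the F test (4.72% of all genes did): Vegfb and the VEGF receptor genes Flt1 and Kdr. Kdr, the main VEGF receptor of endothelium, was at 5.75, 5.46 and 5.35 in coronary artery and 3.50, 3.34 and 3.50 in descending aorta, a 4.21-fold difference (limma adjusted p = 0.00764). Flt1, another VEGF receptor gene, had a 3.05-fold lower level in ascending aorta than coronary artery (limma adjusted p = 0.03) and 2.85-fold higher in coronary than in descending aorta (limma adjusted p = 0.0348). In the fit without 3 arrays Flt1 did not pass the F test. Vegfb, a ligand abundant in heart and brown fat, was at 7.85, 7.75 and 7.75 in coronary artery and 6.15, 5.83 and 5.76 in superior mesenteric artery, 3.65-fold apart (limma adjusted p = 0.00176). Both Vegfa and Vegfb were higher in descending aorta than in superior mesenteric artery, by 1.19 ± 0.25 and 1.15 ± 0.27 (limma adjusted p = 0.0199 and 0.0396). In the fit without 3 arrays Vegfb still passed for that pair (limma adjusted p = 0.0156) and Vegfa did not (limma adjusted p = 0.0518). The brown adipocyte list was at 8.11 to 8.98 in descending aorta and 4.12 to 5.19 in superior mesenteric artery. The endothelial list, 10 genes, was at 6.45 to 6.74 in coronary artery and 5.66 to 6.15 in descending aorta, without overlap, and the cardiomyocyte list was at 9.65 to 9.99 in the coronary artery arrays. The part of these lists in the differences was not tested.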

How the data were processed

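Per the labels' protocols, Trizol was used to extract RNA, and cRNA carrying biotin was hybridised to Affymetrix arrays. The authors deposited log2 values of 35556 probe sets in 12 arrays, with array medians over the genes tested between 4.04 and 4.18. RMA and Partek 6.6 are named in the submitters' processing notes with no role or order, so background correction and normalization were used as deposited, and detection calls were not used. Of the probe sets, 21789 had 1 gene symbol in the platform annotation, 1621 several and 12146 none, and only the first kind was used. By gene identifier, 21698 matched RefSeq's gene table (GRCm38.p6), and 0 symbols changed. The probe set with the highest mean was used for each of 999 genes with more than 1, which left 19938 genes with no filter on dim ones.

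Groups follow the vessel that each sample's labels name. A model with 1 mean per vessel and 8 residual degrees of freedom was fitted to all 12 arrays with limma 3.58.1 (R 4.3.3), with Benjamini-Hochberg adjustment over all genes within the F test and within each of 6 contrasts. The procedure was tested on simulated data. The members and lists were chosen with earlier results of these data known, as was the fit without 3 arrays. All 10 members are named in every comparison; of a list, at most 5 genes with the largest difference; and 3 most alike genes for each of 4 members. Acta2 is named besides, as the defining smooth muscle marker. Alternatives were other normalizations, a filter, averaged probe sets, weights per array, robust variance with a trend on intensity, a replicate block, other adjustment, fits of a pair alone and leaving out arrays. List counts without arrays in doubt were added after the data were seen. Figures used Python 3.11.15 and matplotlib 3.10.9. No sequence is shown for Pdgfrb.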

Additional observations from a re-analysis of the deposited data

How the results depend on the processing

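Rgs2 alone passed the F test in the fit described, and it passed in 16 of 20 alternatives (limma adjusted p between 0.00819 and 0.138). The number of the 10 genes that passed was 3 with array weights (Cspg4, Rgs2 and Rgs4; 9.12% of all genes passed) and 3 without the 3 arrays (Pdgfd, Rgs2 and Rgs4; 5.86%), and between 0 and 4 when 1 array was left out. It was 4 without ascending aorta replicate 1 (Pdgfd, Cspg4, Rgs2 and Rgs4; 9.15% of all genes), 2 without superior mesenteric artery replicate 1 (4.69%), and 0 without coronary artery replicate 1, descending aorta replicate 2 or 3, or superior mesenteric artery replicate 3 (2.76% to 3.33%). For ascending aorta against coronary artery the count was 2 with array weights (4.45% of all genes), 3 without the 3 arrays (3.34%) and 0 to 3 with 1 array left out (3.85% at 3). Against superior mesenteric artery it was 2 with array weights (2.22%), 2 without the 3 arrays (1.66%) and 0 to 3 with 1 array left out (3.15% at 3). Coronary against descending aorta gave 2 without the 3 arrays (3.63%), 3 with only the 6 arrays of the pair (6.32%) and 0 to 2 with 1 array left out (1.63% to 2.29% at 0 and 5.3% at 2). Coronary against superior mesenteric artery gave 0 to 1 with 1 array left out (2.47% and 3.04% of all genes at 1). Descending aorta against superior mesenteric artery gave 2 with array weights (6.8%) and 0 to 1 with 1 array left out (1.09% to 2.43% at 0). Ascending against descending aorta gave 0 in limma under every alternative run. The cause was not tested.

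A few differences that passed in at least 1 alternative also changed sign in another. Pdgfd, ascending aorta minus superior mesenteric artery, was -0.01 in the fit described and 0.018 with each array centred on its median, 0.69 with array weights, 1.3 without the 3 arrays, and between -0.58 and 1.03 with 1 array left out (above 0 without replicate 1 of ascending aorta, at 1.03, and without replicate 1 or 3 of superior mesenteric artery, at 0.06 and 0.25). Pdgfra for the same pair ran from -0.046, without ascending aorta replicate 2, to 1.28 with 1 array left out, and Rgs5, coronary minus superior mesenteric artery, from -0.29, without superior mesenteric artery replicate 2, to 1.63. Of 60 pairwise differences, 46 passed in no fit, and 17 of these changed sign in at least 1 alternative. With the replicate number as a block, 1 of 10 genes passed the F test, again Rgs2 (limma adjusted p = 0.0432), and no count of members changed in any pair. Deviations from the vessel means correlated between -0.25 and 0.09 across genes in 18 same-numbered pairs, with 0 of 18 over 0.1. In 36 different-numbered pairs they correlated between -0.21 and 0.27, with 3 over 0.1. The labels do not say what the number marks, and deviations from means of 3 arrays cannot show whether samples were paired.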

Other observations

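Of 10 measured genes for G protein alpha subunits, on which RGS proteins act, 0 passed the limma F test (1 at an unadjusted p under 0.05) and 1 passed in a pairwise comparison. Gnai2, which encodes an inhibitory alpha subunit, was at 8.68, 8.42 and 8.57 in descending aorta and 9.42, 9.29 and 9.43 in superior mesenteric artery, without overlap (difference -0.82 ± 0.17; limma adjusted p = 0.0179). For that pair 22.9% of all genes had no overlap and 3.2% passed in limma. Gnai1 was at 4.88 in ascending aorta replicate 1 and 6.98 and 7.35 in replicates 2 and 3, against 5.23 to 5.64 in coronary artery. It passed the F test, with Gnai2, when ascending aorta replicate 1 was left out, where 9.15% of all genes passed. In the fit without 3 arrays 0 of 10 passed the F test, and the Gnai2 difference was -0.86 (limma adjusted p = 0.05).

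Immediate early genes, which growth factors such as PDGF induce in cultured cells, numbered 14 measured, of which 0 passed the limma F test (3 at an unadjusted p under 0.05) and 0 passed in any pair, with between 0 and 5 at an unadjusted p under 0.05. Dusp1 was at 6.70 to 7.23 in descending aorta and 7.28 to 8.79 in superior mesenteric artery. These did not overlap, as was so for 22.9% of all genes in that pair. The list averaged 5.12 to 5.34 in descending aorta and 5.61 to 5.70 in superior mesenteric artery, without overlap, a difference of the list that was not tested.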
